A study of Mus musculus with 4 samples.

Results

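The spliceosome and SR protein genes were followed through the transcript counts of mouse embryos injected with a morpholino at the morula and at the blastocyst stage. Members were the genes whose symbols start with Prpf, Sf3a, Sf3b, Snrpa to Snrpg, Snrnp, Srsf or Lsm followed by a number or letter of the family, with Snrpn and pseudogene symbols left out. The rule found 65 of the 55453 genes counted. By role, 7 encode the Sm ring, 6 the U1 particle, 11 the U2 particle, 9 the U4/U6.U5 tri-snRNP, 4 other Prp factors, 3 the minor spliceosome, 13 LSm proteins and 11 SR proteins. The remaining member, Snrpert, is annotated as a processed pseudogene and shares 71.5% of its 31-base stretches with Snrpe, so its counts may include reads of Snrpe.

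Splicing removes introns from pre-mRNA. The U1 particle binds the 5′ splice site and the U2 particle the branch site, and the tri-snRNP then joins and is rearranged into the active enzyme. Each particle is built on a ring of Sm proteins, or, for U6, of LSm proteins, and a related cytoplasmic LSm ring takes part in mRNA decay. SR proteins bind exons and guide the choice of splice sites. Before implantation the mouse embryo passes from maternal to embryonic transcripts, and the first lineages separate as the blastocyst forms.

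The embryos were injected with a control morpholino or with a morpholino against NKX1-2, a homeobox transcription factor. Morpholinos are antisense oligonucleotides that keep a target RNA from being translated or spliced. Each of 4 plates held 48 control wells and 48 NKX1-2 wells of 1 stage, with 2 plates for the morula and 2 for the blastocyst. Strain, age in days, the dose and the number of embryos behind a plate are not given in the labels, and no label ties a well to an embryo, so the plate was taken as the replicate (n = 2 per stage) and p-values measure the spread between these plates, which may be technical. The groups were control and NKX1-2 morula wells and control and NKX1-2 blastocyst wells, and all of them had been injected.

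Of 384 wells, 368 had at least 2000 detected genes and were summed by plate and morpholino into 8 sums of 1084312 to 2398605 counts. Nkx1-2 itself had 0 counts in all wells, so its RNA does not check the knockdown. Wells of the morula had medians of 6502 to 7137 detected genes per sum, and those of the blastocyst 4602 to 5689. Wells that held Xist but no Y-linked count (Xist-only wells) were unevenly spread over the morpholinos: 10 and 23 NKX1-2 wells against 25 and 27 control wells in the morula plates, and 35 and 20 against 15 and 6 in the blastocyst plates. Levels are given as CPM, the counts of a gene scaled to a common library size by TMM, unless a sentence names another scale. The trophectoderm marker Dab2 stood at 12.6 to 17.3 CPM in the morula and at 140 to 199 CPM in the blastocyst, and Gata2 of the same list was at 0 in 7 of 8 sums. Markers of that list went both ways: of 8 tested, edgeR called 6 higher and 2 lower in the control blastocyst wells. The 6 cumulus and granulosa markers summed to 0 to 2.09 unscaled CPM, and of these Inha and Fshr were at 0 in all sums.

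Promoter windows are printed for Prpf38a, the member called with the morpholino, and Srsf1, the member with the largest fall between the stages. They span 250 bases before to 50 after the start in RefSeq on GRCm38.p6, each 5′ to 3′ in the direction of the gene, with the motif CCGGAA (or TTCCGG on the other strand), the core bound by ETS factors, in capitals. Prpf38a lies on chromosome 4 on the minus strand (GRCm38, 108563172 to 108579336) and its window is chr4:108579287-108579586. Srsf1 lies on chromosome 11 on the plus strand (88047373 to 88053755) and its window is chr11:88047123-88047422.
Prpf38a: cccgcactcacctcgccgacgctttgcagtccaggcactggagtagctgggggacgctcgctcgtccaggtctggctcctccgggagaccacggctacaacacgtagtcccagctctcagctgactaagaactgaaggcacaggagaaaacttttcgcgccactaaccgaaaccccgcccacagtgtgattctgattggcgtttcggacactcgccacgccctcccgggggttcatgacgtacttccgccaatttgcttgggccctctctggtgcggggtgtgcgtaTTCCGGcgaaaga
Srsf1: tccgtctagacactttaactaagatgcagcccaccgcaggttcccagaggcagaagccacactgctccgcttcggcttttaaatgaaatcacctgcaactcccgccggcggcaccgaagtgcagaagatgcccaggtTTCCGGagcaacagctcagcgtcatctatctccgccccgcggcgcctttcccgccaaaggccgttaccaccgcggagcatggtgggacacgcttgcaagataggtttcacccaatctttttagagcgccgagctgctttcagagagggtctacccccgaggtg
The capitals stand 37 bases after the start in Prpf38a and 113 bases before it in Srsf1. The window of Snrpf, which was also searched, held 0 of these matches and is not printed. RefSeq entries were found for 54 of 65 members, with 64 windows, and 46.9% of these windows held CCGGAA on either strand, against 14.9% of all 32851 windows and 18.7% of the 21262 windows of protein-coding genes. The median GC content of the windows was 59.0% for the members, 52.7% for all windows and 56.3% for those of protein-coding genes. The letters TAAT, the core bound by many homeodomain proteins, were in 48.4% of the members' windows. They were in 58.0% of all windows and 51.8% of those of protein-coding genes, and in neither window printed here. The CCAAT box was in 37.5% of the members' windows and 37.4% of all windows, and in both printed windows. All motifs were searched on both strands, and matches of different motifs may overlap. A match describes these letters only.

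Division by length presumes counts along the whole transcript, and what was counted is not stated, so the order given here may rest on it. Without division, Srsf3 had 2006 and 2031 counts in the control morula sums, above Snrpe with 1550 and 1462. Read per kilobase of the principal transcript, Snrpe, an Sm ring protein, had 1314 CPM per kilobase in control morula wells and 1443 in control blastocyst wells. These were the highest of the 64 members with a length at both stages. Snrpb, which encodes SmB, followed with 702 and 959.9 CPM per kilobase, and Snrpa1, the U2 A′ protein, was the third in the morula with 583.7. The large tri-snRNP proteins were near the other end. Prpf8, the U5 scaffold at the centre of the spliceosome, had 3.46 and 6.20 CPM per kilobase, and the helicase Snrnp200, which unwinds U4 from U6, 3.71 and 7.48. Srsf12 (0.422 CPM in 1 morula control sum and 0 in the other 7 sums) and Prpf40b (0 to 3.13 CPM) had too few counts to be tested, which left 63 tested members.

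The first comparison asked what the NKX1-2 morpholino did to splicing genes within a plate. Prpf38a, which encodes a factor needed to activate the assembled spliceosome, had 26.2 and 30.6 CPM in the control morula sums and 67.8 and 80.5 CPM in the NKX1-2 morula sums. In the blastocyst it had 38.4 and 68.1 CPM in control and 115 and 96.3 CPM in NKX1-2 sums. The NKX1-2 sum was thus higher than the control sum in 4 of 4 plates, and the groups did not overlap at either stage. The underlying counts were 62 and 67 against 177 and 207 in the morula, and 36 and 89 against 147 and 144 in the blastocyst. Counts were spread over the wells: 35 and 33 of the 48 control morula wells of each plate had a count, against 44 of 48 and 43 of 47 NKX1-2 wells. In the blastocyst 21 and 31 of 43 control wells had a count, against 42 of 47 and 41 of 44 NKX1-2 wells, and no well held more than 11.1% of its sum.

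**Figure D1:**
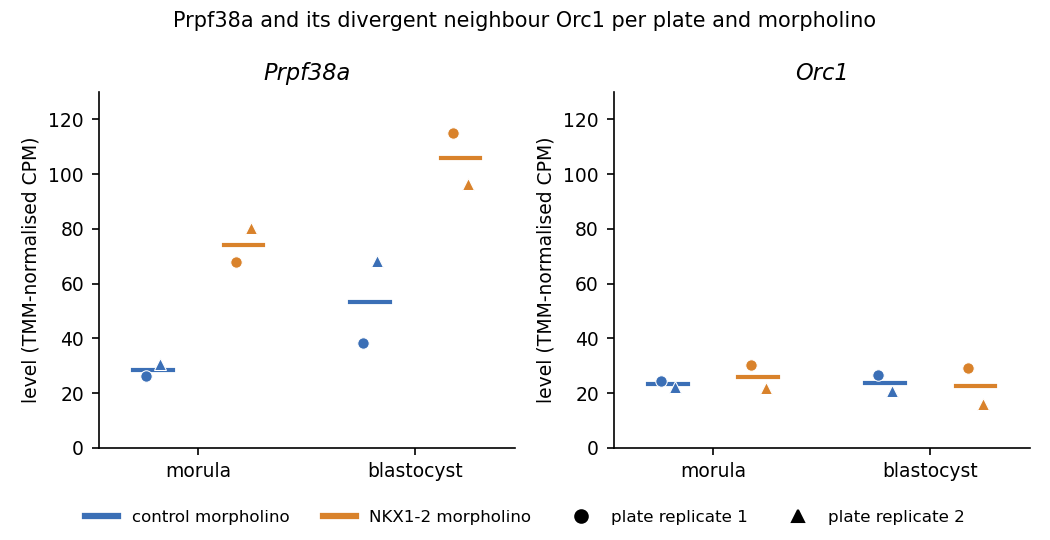
Level in TMM-normalised CPM (y axis, from 0) of Prpf38a and of its divergent neighbour Orc1 in the 8 sums, by stage (x axis) and morpholino (colour); circles are plate replicate 1, triangles plate replicate 2, and bars their mean. Prpf38a lies higher in the NKX1-2 sum of every plate, while the Orc1 values of the morpholinos overlap at both stages.

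In edgeR's quasi-likelihood test with the plate as block, Prpf38a rose in the morula (log2 fold change 1.38, SE 0.22, adjusted p = 0.00817) and on average over both stages by 1.18 (SE 0.16, adjusted p = 0.00108). The blastocyst estimate alone, 0.97 (SE 0.23), missed the threshold (edgeR adjusted p = 0.0681), and the difference between the stages was -0.42 (SE 0.33, edgeR adjusted p = 0.899). The size in the blastocyst rested on the plate: it was 1.58 without replicate 2 and 0.51 without replicate 1. With 1 plate of a stage left out, the spread comes from the other plates and the lone plate is assumed to vary like them. The morula call was lost when either morula plate was left out, although the value stayed at 1.40 both times, and in DESeq2 (1.39, adjusted p = 0.0891). Among Xist-only wells the log2 values were 1.5 in the morula, where the call was lost (edgeR adjusted p = 0.113), and 1.15 on average (edgeR adjusted p = 0.0349). The average call passed under all 14 alternatives, with values from 0.94 to 1.48.

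Orc1, which encodes the largest subunit of the origin recognition complex, starts 118 bases from Prpf38a in the other direction, and the RefSeq windows of the genes share 217 bases. Orc1 had 24.5 and 22.4 CPM in control and 30.3 and 21.8 CPM in NKX1-2 morula sums, and 26.7 and 20.7 against 29.0 and 16.1 CPM in the blastocyst. The average log2 fold change of Orc1 was 0.02 (SE 0.20, edgeR adjusted p = 0.989), and its morpholino groups overlapped at both stages. Orc1 was looked up because of its position, after the values of Prpf38a were known. Of the trophectoderm markers, Gata3 was also higher with the NKX1-2 morpholino (log2 fold change 1.21 on average, edgeR adjusted p = 0.00944), and the other 8 tested markers of that list did not pass; the part of cell makeup in the Prpf38a difference was not tested.

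Beyond Prpf38a, no member passed. In the morula 1 of 63 members was called, where edgeR called 0.552% of all 10873 genes tested (0.276% higher and 0.276% lower), with 3 members at an unadjusted p under 0.05. In the blastocyst 0 of 63 were called by edgeR and by DESeq2, against 0.727% of all genes (0.386% higher, 0.34% lower), with 12 members at an unadjusted p under 0.05 in edgeR. On average over both stages 1 of 63 was called, against 2.9% of all genes (1.56% higher, 1.33% lower), with 17 at an unadjusted p under 0.05. The difference between stages gave 0 calls in edgeR and in DESeq2, against 0.0184% of all genes (0.0092% in each direction), with 3 at an unadjusted p under 0.05. Of all 10873 genes, 1159 (morula), 1491 (blastocyst), 1803 (average) and 699 (difference) were at an unadjusted p under 0.05 in edgeR. The median log2 fold change of the members was 0.00 in the morula, 0.02 in the blastocyst and -0.02 on average, beside 0.00, 0.00 and -0.01 over all genes. Standard errors of the average effect had a median of 0.11, and the absolute log2 fold changes a median of 0.16.

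**Figure D2:**
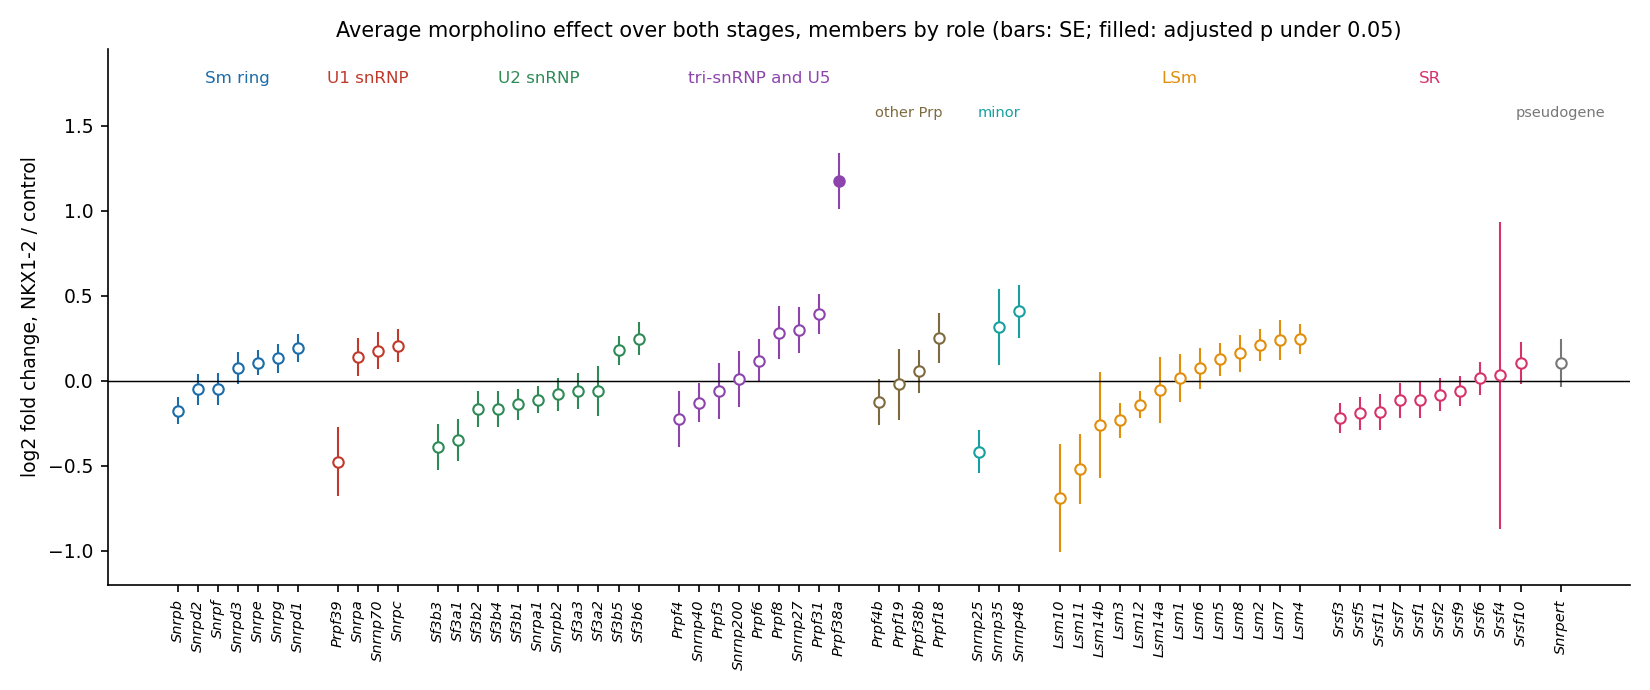
Log2 fold change of NKX1-2 against control wells averaged over both stages (y axis) for the tested members named here (x axis), coloured by role; bars are the SE, and a filled point passed at an adjusted p under 0.05. Prpf38a stands at 1.18 and is the filled point, and the wide bar of Srsf4 belongs to a gene with few counts in the morula.

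The number of average calls depended on the blastocyst plates. Without blastocyst replicate 1 it was 7 (5 higher, 2 lower) and without replicate 2 it was 10 (4 higher, 6 lower), and of these calls Prpf38a and Prpf31 higher and Sf3a1 lower were made both times. Of all genes, 8.4% and 8.98% were then called on average. Without blastocyst replicate 2 the blastocyst comparison called 6 members, beside 5.32% of all genes, and the difference between stages 3, beside 2.06%. In the morula, Snrpc passed beside Prpf38a when either blastocyst plate was left out, which made 2 calls, beside 6.94% of all genes without replicate 1 and 7.03% without replicate 2.

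Read by role, the Sm ring had no call in any of the 4 morpholino comparisons, with average log2 fold changes from -0.18 (Snrpb) to 0.19 (Snrpd1). Snrpf had a log2 fold change of -0.29 in the morula and a difference between stages of 0.49, and neither passed. Snrpe had 655 and 667 CPM in control and 686 and 689 CPM in NKX1-2 morula sums, and an average log2 fold change of 0.11 (SE 0.07, edgeR adjusted p = 0.509). Among the U1 proteins, Snrpc, which steadies U1 on the 5′ splice site, had 421 and 398 CPM in control and 522 and 530 CPM in NKX1-2 morula sums. Its log2 fold change of 0.36 (SE 0.13) did not pass (edgeR adjusted p = 0.297), and in the blastocyst the groups overlapped, with 275 and 185 against 237 and 231 CPM.

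Among the U2 proteins 9 of 11 average values were below 0, without a call, beside 32 of 63 members and 5550 of all 10873 genes. Sf3b3, a subunit of the branch-site complex SF3B, had 89.98 and 47.0 CPM in control and 65.9 and 35.4 CPM in NKX1-2 morula sums, and 108 and 83.5 against 69.7 and 78.2 CPM in the blastocyst. Its NKX1-2 sum was the lower one in 4 of 4 plates, but the control sums of the morula plates differed from each other by more than the morpholinos did within them, and the average of -0.39 (SE 0.13) did not pass (edgeR adjusted p = 0.137). In Xist-only wells its average was -0.01, and its morula value changed sign, from -0.43 to 0.08. Sf3b6, which contacts the branch point, leaned the other way with an average of 0.25 (SE 0.09, edgeR adjusted p = 0.182).

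In the tri-snRNP, Prpf31, which bridges U4/U6 and U5, came closest to a call after Prpf38a. It had 115 and 139 CPM in control and 162 and 147 CPM in NKX1-2 morula sums, and 92.8 and 112 against 148 and 142 CPM in the blastocyst. These groups did not overlap, and the average log2 fold change was 0.39 (SE 0.12, edgeR adjusted p = 0.0844). It passed without either blastocyst plate, as given above, and without the filter on low counts. In the minor spliceosome, which removes a rare class of introns, Snrnp25 leaned to lower levels, with 96.3 and 112 CPM in control and 88.5 and 81.7 CPM in NKX1-2 morula sums. In the blastocyst Snrnp25 had 88.5 and 95.7 against 66.6 and 60.2 CPM, and its average was -0.42 (SE 0.13, edgeR adjusted p = 0.0905). Snrnp48 of the same particle leaned upward with 0.41 (SE 0.16, edgeR adjusted p = 0.189).

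Of the LSm proteins, Lsm2 and Lsm4, which sit in both the nuclear and the cytoplasmic ring, had the smallest p-values in the blastocyst. Lsm2 had 192 and 212 CPM in control and 248 and 284 CPM in NKX1-2 blastocyst sums (log2 fold change 0.39, SE 0.14, edgeR adjusted p = 0.207). In the morula Lsm2 overlapped, with 272 and 274 against 262 and 296 CPM. The difference between stages was 0.37 for Lsm2 and -0.37 for Lsm12, and neither passed. Lsm4 had 319.8 and 323 against 402 and 423 CPM in the blastocyst (0.36, SE 0.13, edgeR adjusted p = 0.210). The SR proteins had no call, with averages from -0.22 (Srsf3) to 0.10 (Srsf10). Srsf2 had one of the smallest p-values for a difference between stages, -0.49 (SE 0.19, edgeR adjusted p = 0.677), with 326 and 323 against 345 and 383 CPM in the morula and 458 and 358 against 305 and 340 CPM in the blastocyst. Over all 63 members, 14 had the higher value in the NKX1-2 sum of all 4 plates, 9 had the lower value in all 4, and 40 were mixed. These are 22.2% and 14.3% of the members, beside 12.2% and 11.8% of all 10873 genes tested.

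Other splicing factors formed a list of genes outside the families above. Of 74 tested, 0 passed in the morula in edgeR, 2 were lower in the blastocyst, and on average 1 was higher and 3 were lower. In the morula 13 were at an unadjusted p under 0.05 in edgeR, beside 1159 of all 10873 genes. These shares were 2.7% in the blastocyst and 5.41% on average, beside 0.727% and 2.9% of all genes. Txnl4a, a small U5 protein, had 251 and 271 CPM in control and 171 and 179 CPM in NKX1-2 morula sums, and 354 and 309 against 211 and 201 CPM in the blastocyst. These groups did not overlap, and Txnl4a fell by 0.63 on average on the log2 scale (SE 0.09, edgeR adjusted p = 0.00178). Magoh, a core protein of the exon junction complex, rose by 0.45 (SE 0.08, edgeR adjusted p = 0.00913), from 424 and 473 to 526 and 648 CPM in the morula. The U1-associated factors Luc7l (-0.49, SE 0.11) and Luc7l3 (-0.43, SE 0.11) fell with edgeR adjusted p-values of 0.0295 and 0.0458. Of 17 tested genes for Sm assembly and SR protein kinases, 0 passed on average in edgeR, with 3 at an unadjusted p under 0.05, beside 1803 of all 10873 genes.

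The second comparison set the blastocyst against the morula, separately in control and in NKX1-2 wells. The SR genes Srsf1, Srsf9 and Srsf6 fell towards the blastocyst. Srsf10 and the LSm ring genes Lsm7, Lsm3, Lsm5 and Lsm1 rose, as did Snrpf of the Sm ring. In control wells 21 of 63 members passed (14 higher, 7 lower), or 33.3%, against 41.7% of all 9577 genes tested (20.1% higher, 21.6% lower). In NKX1-2 wells 27 passed (17 higher, 10 lower), or 42.9%, against 45.9% of all 10221 genes (21.9% higher, 24% lower). By direction, the members' shares were 22.2% higher and 11.1% lower in control wells, and 27% higher and 15.9% lower in NKX1-2 wells. The higher calls of both fits include Srsf4, which had 0 to 3 counts per morula sum and passed the filter through its blastocyst sums. The median log2 fold change of the members was 0.13 in control and 0.06 in NKX1-2 wells, beside -0.01 and -0.02 over all genes.

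**Figure D3:**
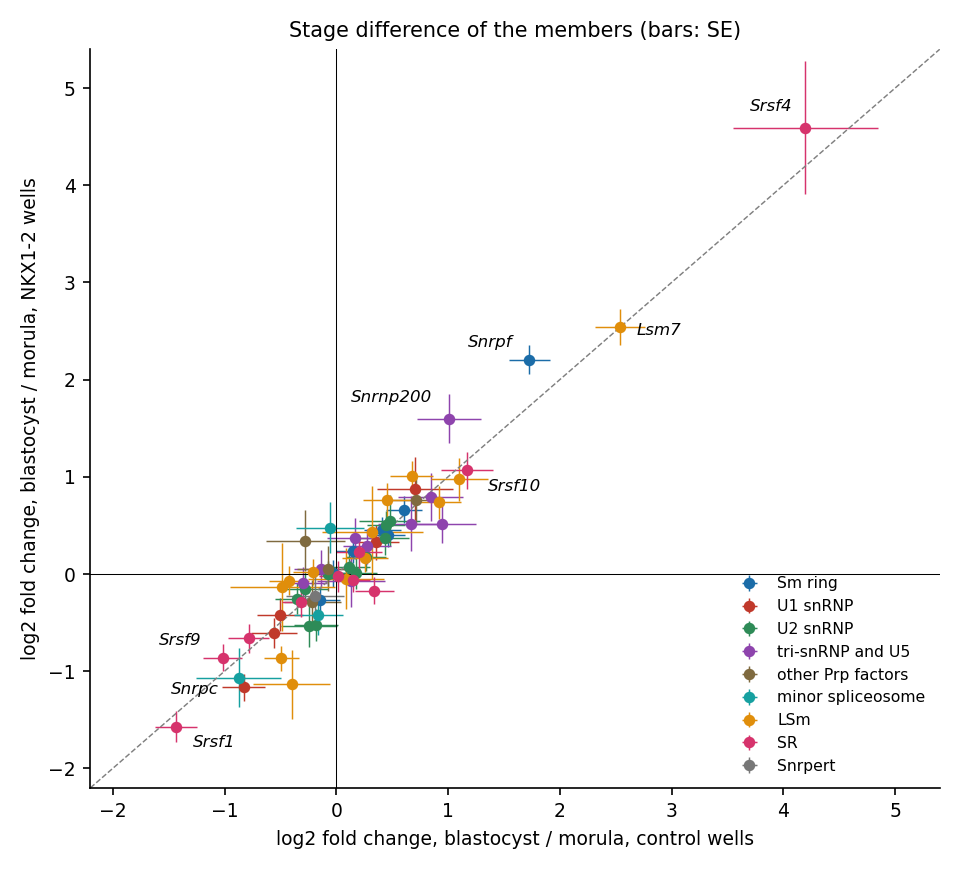
Log2 fold change of blastocyst against morula in control wells (x axis) and in NKX1-2 wells (y axis) for the 63 tested members, coloured by role; bars are the SE and the dashed line marks equal values. The fits share no sums, and Lsm7 (2.54 in both) and Srsf1 (-1.44 and -1.57) lie near the line; the place of Srsf4 rests on 0 to 3 counts per morula sum.

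The fits used different wells of the same 4 plates. Both called 20 members, which is 95.2% of the control list and 74.1% of the NKX1-2 list, and all 20 had the same direction in both (14 higher, 6 lower). Over all genes the fits called 3993 and 4690, and the overlap of these calls was not counted. The shared calls are therefore not a trait shown to be particular to the members. Lsm11, Lsm6, Prpf39, Sf3a2, Sf3b4, Snrnp35 and Snrpd1 were called in NKX1-2 wells and not in control wells. The difference in stage effect between the morpholinos is the difference tested above, which gave 0 calls. Across the 14 alternatives, 8 control calls and 12 NKX1-2 calls held in every one in which the gene was tested, and the 8 were also among the 12. How many calls of all genes held in this way was not counted. Of the 8, Srsf4 had few counts in the morula and passed the filter through its blastocyst sums, so its call carries no weight, and the other 7 were Lsm3, Lsm7, Snrpf, Srsf1, Srsf10, Srsf6 and Srsf9. Without morula replicate 2 the control fit called 11 members, beside 26.2% of all genes, and without blastocyst replicate 1 the NKX1-2 fit called 15, beside 19.5%. In the Xist-only wells, which are fewer, 7 and 17 were called, beside 22.8% and 36.8% of all genes. The 7 in control wells were those just named. In NKX1-2 wells the calls of Lsm1, Lsm6, Prpf8, Prpf38a, Prpf39, Sf3a2, Sf3b4, Sf3b5 and Snrnp35 were not among the 17. DESeq2 lost, among others, the control calls of Prpf38a, Prpf4b, Prpf8, Sf3b5, Snrnp70 and Snrpb. It also lost the NKX1-2 calls of Lsm11, Prpf38a, Prpf39, Prpf4b, Prpf8, Sf3a2, Sf3b4 and Snrnp35. Losses given below for single members are mainly those with a plate left out and are not complete.

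Srsf1, the founding SR protein that acts in constitutive and alternative splicing, had 348 and 316 CPM in control morula sums and 130.1 and 114 CPM in control blastocyst sums. In NKX1-2 wells it went from 324 and 317 to 98.0 and 117 CPM. It fell by 1.44 (SE 0.19, edgeR adjusted p = 2.32e-06) and by 1.57 (SE 0.16, edgeR adjusted p = 3.93e-07) on the log2 scale. Srsf9, from 463 and 550 to 253 and 244 CPM in control wells, fell by 1.02 (SE 0.17) and, in NKX1-2 wells, by 0.86 (SE 0.14). Srsf6, from 306 and 294 to 161 and 185 CPM, fell by 0.78 (SE 0.18) and 0.66 (SE 0.15). All 3 were lower in both blastocyst plates than in both morula plates with either morpholino.

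The other SR genes with stage calls were higher. Srsf10, an SR protein that becomes a splicing repressor when dephosphorylated, rose from 45.6 and 52.5 to 109 and 110 CPM in control wells, a log2 fold change of 1.17 (SE 0.23, edgeR adjusted p = 0.000302), and by 1.07 (SE 0.19) in NKX1-2 wells. Srsf3, with the highest CPM of the SR group, had 847 and 927 CPM in control morula and 1119 and 836 CPM in control blastocyst sums, which overlapped (0.15, SE 0.16, edgeR adjusted p = 0.465). Srsf7 stood at 351 and 377 against 398 and 333 CPM. Srsf4 had 2 and 1 counts in the control and 3 and 0 in the NKX1-2 morula sums, against 10 and 20 and 15 and 28 counts in the blastocyst sums, so no fold change is given.

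**Figure D4:**
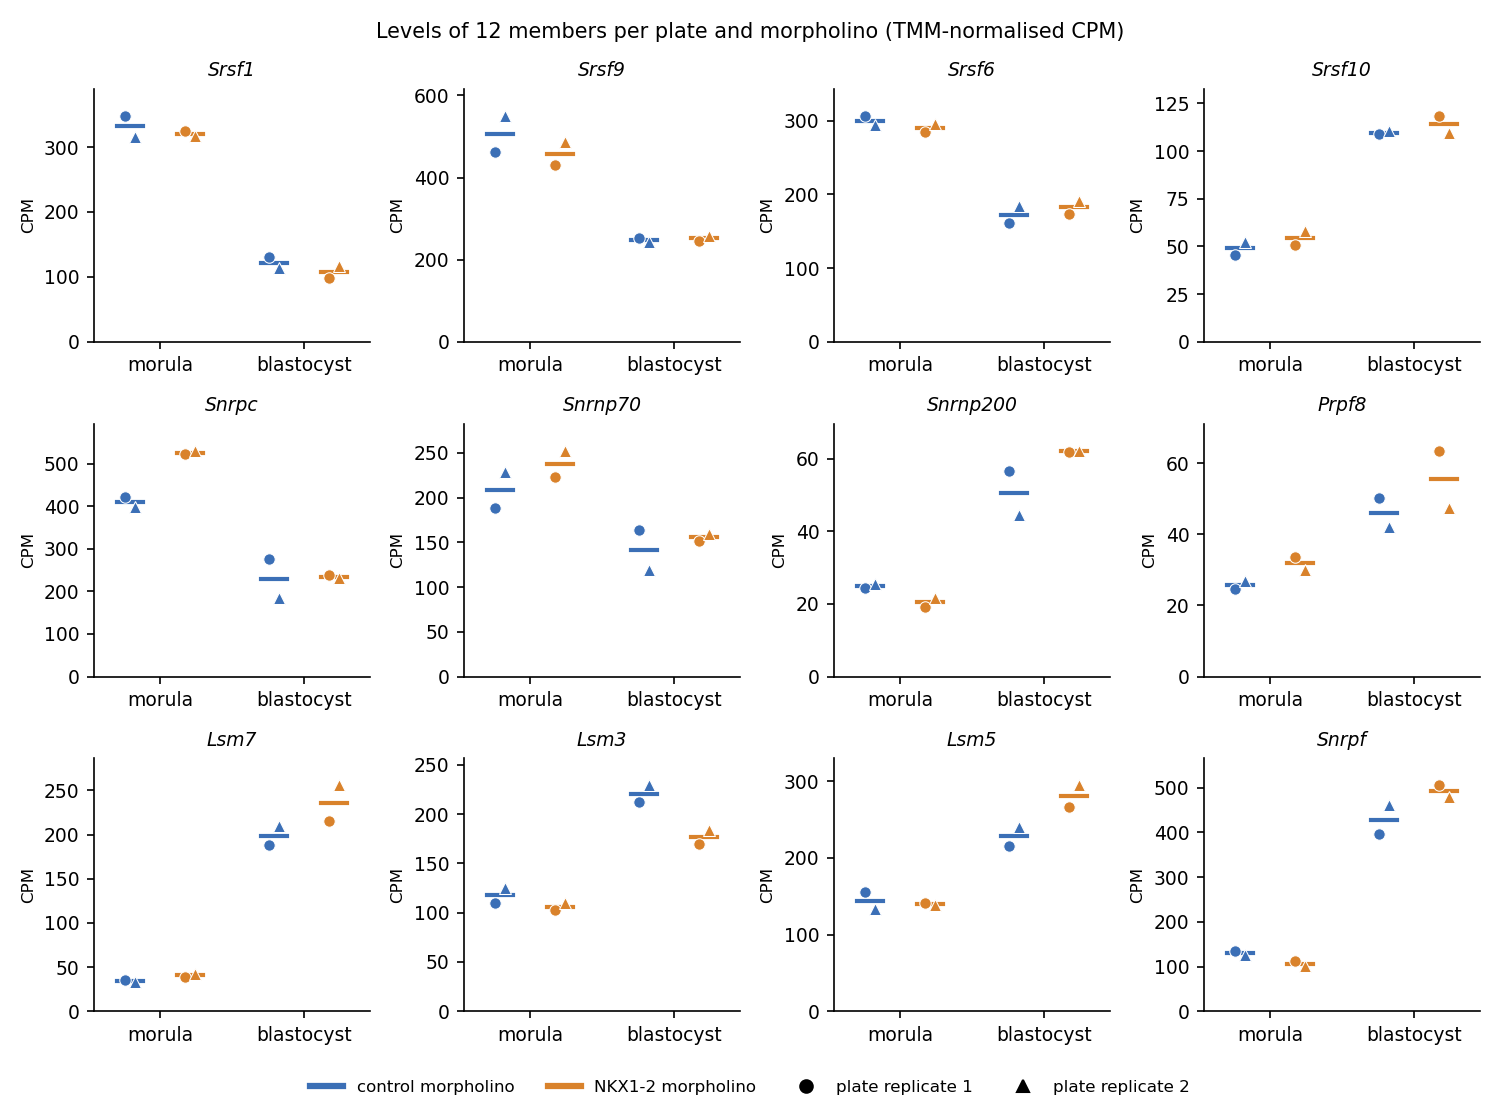
Level in TMM-normalised CPM (y axes, each from 0) of 12 members in the 8 sums, by stage and morpholino; circles are plate replicate 1, triangles plate replicate 2, and bars their mean. Srsf1, Srsf9 and Srsf6 are lower in every blastocyst sum than in every morula sum, and Srsf10, Snrnp200, Prpf8, Lsm7, Lsm3, Lsm5 and Snrpf are higher.

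In the LSm group, Lsm7 had the largest difference of the members above 20 CPM. It rose from 35.5 and 33.3 to 188 and 210 CPM in control wells and from 38.7 and 42.4 to 215 and 255 CPM in NKX1-2 wells, a log2 fold change of 2.54 in both (SE 0.22 and 0.18, edgeR adjusted p = 3.9e-09 and 3.38e-09). A processed pseudogene that holds 15.96% of the 31-base stretches of Lsm7, Gm10146, had 14.2 unscaled CPM in the morula and 9.92 in the blastocyst. Lsm3 rose by 0.92 (SE 0.19), from 110 and 125 to 212 and 229 CPM in control wells, and by 0.74 (SE 0.17) in NKX1-2 wells. Lsm5 rose by 0.67 (SE 0.19) and 1.01 (SE 0.15), where the control call was lost without morula replicate 2 (0.53). A pseudogene holding 22.1% of its stretches, Gm7846, had 13.0 and 20.7 unscaled CPM at the stages. Lsm1, the subunit that marks the cytoplasmic ring, rose by 1.10 (SE 0.26) and 0.97 (SE 0.22), while Lsm8, its counterpart in the nuclear ring, had 0.26 (SE 0.20) and 0.17 (SE 0.15) and did not pass. Lsm12 fell by 0.49 (SE 0.16) and 0.87 (SE 0.13), and its control call was lost without morula replicate 2 (-0.47) or blastocyst replicate 2 (-0.43). Lsm11, which with Lsm10 builds the U7 ring for histone mRNA, fell by 1.13 (SE 0.36) in NKX1-2 wells, a call lost without morula replicate 2 (-1.09) or blastocyst replicate 1 (-0.74). Lsm6 rose by 0.76 (SE 0.18) in NKX1-2 wells, a call lost without blastocyst replicate 1 (0.61).

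In the Sm ring, 3 of 7 members were called higher in control wells and 4 of 7 in NKX1-2 wells, and none was called lower. Of all genes, 20.1% and 21.9% were called higher. The calls include Snrpf in both fits. Snrpf rose from 135 and 126 to 396 and 462 CPM in control wells (log2 fold change 1.73, SE 0.18, edgeR adjusted p = 8.67e-08) and by 2.20 (SE 0.15) in NKX1-2 wells. Of the exonic bases of Snrpf, 85.4% are overlapped on the opposite strand by exons of other genes, Ccdc38 and 4933408J17Rik, and the use of strand in counting is not given, so these counts cannot be assigned to Snrpf with certainty. Such overlap went with the stage difference over all genes: of 498 tested genes with at least 20% of their exonic bases overlapped, 41.0% were called higher in the control blastocyst wells, against 19.0% of 9017 genes with less. The matrix files of the stages also differ in their header line, and file writing, plate and stage cannot be told apart. Without the overlapped genes 19 of 60 tested members were called in control and 24 of 60 in NKX1-2 wells, beside 40.7% and 45.4% of all genes. A pseudogene with 23.1% of the 31-base stretches of Snrpf, Gm13092, had 44.9 unscaled CPM in the morula and 22.2 in the blastocyst. Srsf4 (43.0% overlapped) and Srsf2 (25.3%) are the other members of that class. Snrpg, with 451 and 424 CPM in the morula and 603 and 718 CPM in the blastocyst of control wells, rose by 0.61 (SE 0.16) and, in NKX1-2 wells, by 0.66 (SE 0.14). The control call of Snrpg was lost without morula replicate 2 (0.53) and in Xist-only wells (0.34), and the NKX1-2 call without blastocyst replicate 1 (0.62). Snrpe, the highest member per length, had 655 and 667 against 738 and 714 CPM (0.15, SE 0.15, edgeR adjusted p = 0.458).

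Of the U1 proteins, Snrpc fell from 421 and 398 to 275 and 185 CPM in control wells, by 0.83 (SE 0.19, edgeR adjusted p = 0.0013), and from 522 and 530 to 237 and 231 CPM in NKX1-2 wells, by 1.17 (SE 0.14, edgeR adjusted p = 2.05e-06). Snrnp70, which binds U1 snRNA, fell by 0.56 (SE 0.20) and 0.61 (SE 0.16). Its control call was lost without morula replicate 1 (-0.71), morula replicate 2 (-0.45) or blastocyst replicate 2 (-0.32), and its NKX1-2 call without blastocyst replicate 1 (-0.56). Prpf39 rose by 0.88 (SE 0.32) in NKX1-2 wells, a call lost whichever plate was left out (0.77 to 0.98).

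In the U2 group 1 of 11 members was called in control wells and 3 of 11 in NKX1-2 wells. These are 9.09% and 27.3%, beside 41.7% and 45.9% of all genes. Sf3b1, the subunit that clamps the branch site, had 338 and 311 CPM in the morula and 447 and 330 CPM in the blastocyst of control wells (0.27, SE 0.18, edgeR adjusted p = 0.247). Snrpa1 stood at 741 and 715 against 633 and 736 CPM. Sf3b5 was the U2 gene called higher in both fits, by 0.45 (SE 0.17) and 0.50 (SE 0.14). Its control call was lost without morula replicate 1 (0.39), morula replicate 2 (0.44) or blastocyst replicate 2 (0.40), in DESeq2 (0.45), without the filter on low counts (0.32) and in Xist-only wells (0.23). The NKX1-2 call of Sf3b5 was lost without morula replicate 1 (0.39) or blastocyst replicate 2 (0.40), and in Xist-only wells (0.41). In NKX1-2 wells Sf3a2 and Sf3b4 fell by 0.54 (SE 0.21) and 0.52 (SE 0.17). The Sf3a2 call was lost in 11 of the 14 alternatives, among them whichever plate was left out (-0.66 to -0.45). The Sf3b4 call was lost in 5 of 14, among them without morula replicate 1 (-0.50), blastocyst replicate 1 (-0.48) or blastocyst replicate 2 (-0.56). A pseudogene holds 48.6% of the 31-base stretches of Sf3b4 and had 0.444 and 0.532 unscaled CPM at the stages.

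In the tri-snRNP, the stage calls were all higher in the blastocyst. Snrnp200 rose from 24.5 and 25.6 to 56.5 and 44.4 CPM in control wells (1.01, SE 0.29, edgeR adjusted p = 0.00719) and from 19.2 and 21.8 to 61.9 and 62.2 CPM in NKX1-2 wells (1.60, SE 0.25, edgeR adjusted p = 5.13e-05). Its control call was lost without morula replicate 1 (0.96) or morula replicate 2 (1.01) and in Xist-only wells, where the value was 0.14, and its NKX1-2 call held throughout. Prpf8 rose by 0.84 (SE 0.29) and 0.80 (SE 0.25). The control call of Prpf8 was lost without morula replicate 1 (0.75), morula replicate 2 (0.88) or blastocyst replicate 1 (0.72), and the NKX1-2 call without morula replicate 2 (0.68) or blastocyst replicate 1 (0.59). Prpf38a rose by 0.95 (SE 0.30, edgeR adjusted p = 0.0142) in control and 0.51 (SE 0.19, edgeR adjusted p = 0.0386) in NKX1-2 wells. The control value of Prpf38a was 0.46 without blastocyst replicate 2, 0.80 without morula replicate 1, 1.02 without morula replicate 2, 0.94 in DESeq2 and 1.20 in Xist-only wells, each without a call. Its NKX1-2 call was lost whichever plate was left out (0.37 to 0.64), in DESeq2 (0.52), without the filter on low counts (0.40) and in Xist-only wells (0.48).

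Outside these particles, Prpf4b, a kinase of tri-snRNP proteins, rose by 0.71 (SE 0.25) and 0.76 (SE 0.25). Its calls were lost without morula replicate 2 (0.52 in control, 0.59 in NKX1-2 wells) or blastocyst replicate 1 (0.49 and 0.36), and in control wells also without morula replicate 1 (0.87) and in Xist-only wells (0.01). In the minor spliceosome, Snrnp35, a U11 protein, fell in NKX1-2 wells by 1.07 (SE 0.30), from 32.2 and 38.9 to 14.1 and 19.4 CPM, a call lost without morula replicate 2 (-0.96) or blastocyst replicate 1 (-0.86). Prpf19, the ubiquitin ligase of the Prp19 complex, stood at 21.5 and 22.4 against 20.3 and 16.1 CPM in control wells and did not pass.

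Summed over all members, the families took 1.34% to 1.38% of the counts in the morula sums and 1.16% to 1.20% in the blastocyst sums, which do not overlap. The SR group took 3511 and 3511 CPM, here without scaling, in control morula sums and 2765 and 2373 in control blastocyst sums, and the U1 group 998 and 948 against 642 and 525. The Sm ring went the other way, with 3208 and 3253 against 3541 and 3543. Over the NKX1-2 sums the SR group went from 3291 and 3399 to 2180 and 2397, the U1 group from 1193 and 1137 to 652 and 624 and the Sm ring from 3305 and 3242 to 3738 and 3754. Without Snrpf the Sm ring had 3059 and 3120 in the morula against 3193 and 3124 in the blastocyst of control wells. In NKX1-2 wells it had 3181 and 3134 against 3274 and 3322. The stages then overlapped with the morpholinos pooled, but not within either morpholino. These are shares of all counts and were not tested. Fewer cells of a type and less RNA per cell cannot be told apart in such sums. Inner cell mass markers summed to 559 to 705 unscaled CPM in the morula and to 231 to 310 in the blastocyst with 0 of 7 at 0, and oocyte markers to 39.6 to 51.8 and 9.38 to 22.3 with 1 and 2 to 5 of 8 at 0. Primitive endoderm markers summed to 285 to 336 and 115 to 188, with 1 or 2 of 7 at 0 at either stage. Trophectoderm markers summed to 637 to 713 and 665 to 870, with 0 or 1 of 10 at 0. Of these, edgeR called 6 of 8 tested higher and 2 lower in the control blastocyst wells, and 5 of 9 higher and 2 lower in the NKX1-2 blastocyst wells. The part of cell makeup in the stage differences was not tested.

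**Figure D5:**
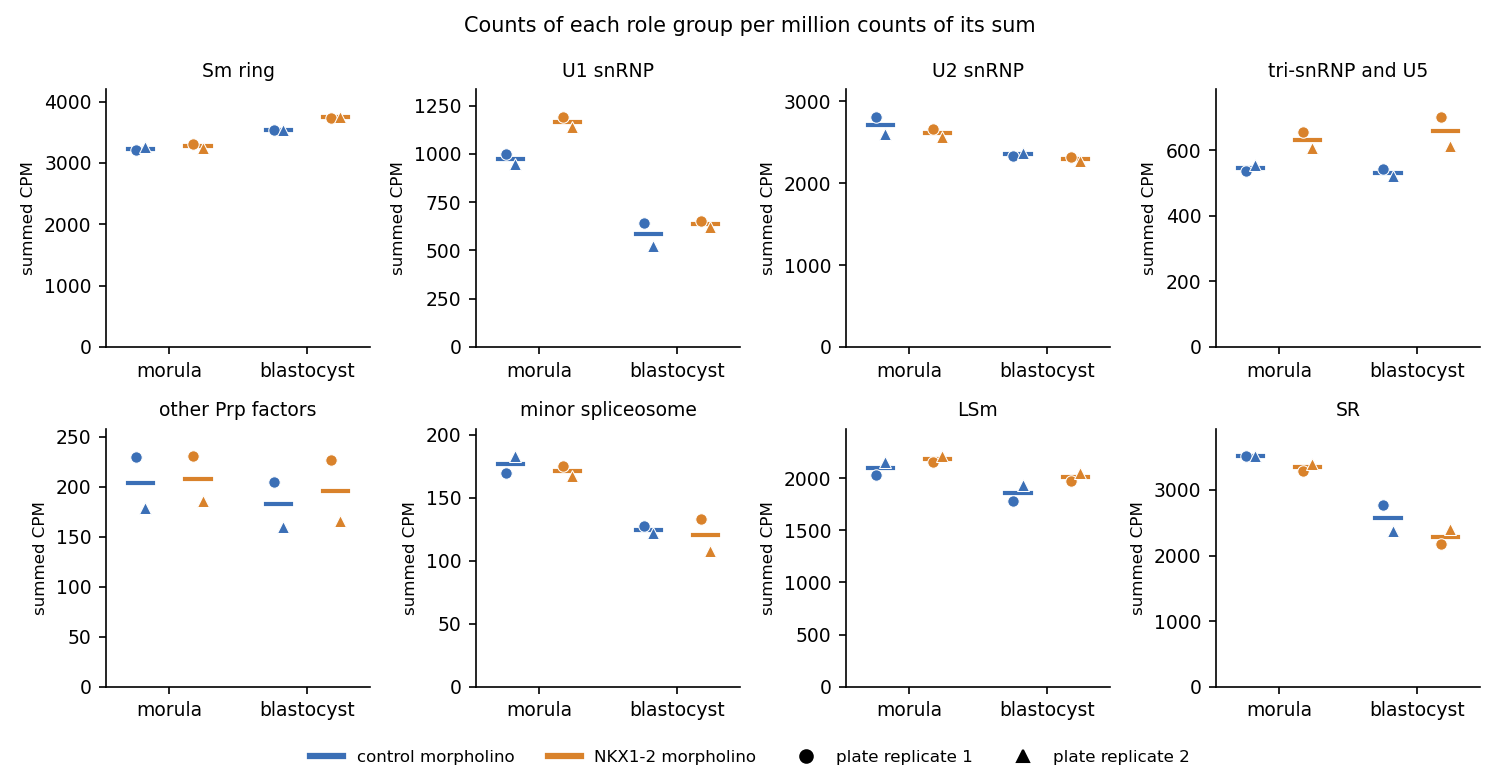
Unscaled CPM summed over each role group (y axes, each from 0) in the 8 sums, by stage and morpholino; circles are plate replicate 1, triangles plate replicate 2, and bars their mean. The SR and U1 groups are lower in every blastocyst sum than in every morula sum, and the Sm ring is higher. Without Snrpf the Sm ring sums of the stages overlap with the morpholinos pooled, but not within either morpholino.

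Of the other splicing factors, 25 of 74 passed between the stages in control wells (13 higher, 12 lower) and 34 of 74 in NKX1-2 wells (17 higher, 17 lower), which is 33.8% and 45.9% beside 41.7% and 45.9% of all genes. Sap18, a subunit of an exon junction accessory complex, rose from 35.9 and 26.9 to 354 and 335 CPM in control wells (log2 fold change 3.46, SE 0.22). Whether near-identical copies share its reads was not checked. Dhx16, the helicase that readies the spliceosome for its first catalytic step, rose from 73.9 and 73.0 to 426 and 432 CPM in control wells (2.56, SE 0.19) and from 84.7 and 86.7 to 325 and 216 CPM in NKX1-2 wells (1.66, SE 0.19). In the blastocyst Dhx16 was lower with the NKX1-2 morpholino by 0.70 (SE 0.15, edgeR adjusted p = 0.0498), while the test of the difference between stages did not pass (-0.92, SE 0.23, edgeR adjusted p = 0.335). Snw1 rose by 1.53 (SE 0.23), Tra2a, an SR-like splicing activator, fell by 0.90 (SE 0.16), and the minor spliceosome gene Pdcd7 fell by 1.35 (SE 0.27) in control wells. Of the genes for Sm assembly and SR protein kinases, 6 of 17 passed in control wells (4 higher, 2 lower) and 9 of 18 in NKX1-2 wells (5 higher, 4 lower).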

How the data were processed

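Counts per gene and well barcode were deposited by the authors as whole numbers without normalization, with a table of the morpholino of each of the 96 barcodes, the same for every plate. Per the labels' protocols, RNA was taken up in a detergent with RNase inhibitor and polyA-captured for an Illumina library. The labels' descriptions also mention 10x Genomics. The submitters' processing notes list TopHat2, GRCm38 and mm10. Which tool counted, with which strand setting, and what it counted (reads or molecules) is not stated in these sources. The members and lists were chosen with earlier results of these data known.

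Wells with at least 2000 detected genes were summed by plate and morpholino. A run of 344 neighbouring genes in the files, from U2af1 to V1rg10, had 0 counts in both morula plates and was left out of every fit; it held 0 members and 5 of the other splicing factors. Sums were filtered with filterByExpr, scaled by TMM and tested with robust quasi-likelihood fits (edgeR 4.0.16, limma 3.58.1, R 4.3.3). The morpholino was tested across all 8 sums together, blocked by plate, and the stages separately in the 4 control and in the 4 NKX1-2 sums. P-values were adjusted over all genes tested (Benjamini-Hochberg), and those under 0.05 passed. The fits were tested on simulated data. Alternatives were RLE factors, DESeq2 1.42.0, limma voom, other well and gene filters, other blocks and each plate left out; leaving out genes with at least 20% opposite-strand overlap was chosen after seeing the data.

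Named were members that passed, filled to 4 by the smallest p in each morpholino comparison; up to 10 per direction by size among stage calls that reach 20 CPM; the 2 highest of each role group; and up to 3 other splicing factors per direction. Snrnp40 and Prpf38b met this rule by level and are not described in the text. Members outside this rule (Snrpg, Snrpd1, Sf3a1, Sf3b5, Sf3b6, Srsf4, Srsf7, Prpf19, Lsm8, Lsm10, Lsm14b, Srsf12 and Prpf40b) were chosen after their values were seen. Positions and overlaps come from GENCODE M21 on GRCm38, in which all 65 members were found by symbol, and promoter sequences from RefSeq. Figures were drawn with matplotlib 3.10.9 (Python 3.11.15, numpy 2.4.6, scipy 1.17.1, pandas 2.3.3). A member of the list is not reported by name here; it stays in the counts.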

Additional observations from a re-analysis of the deposited data

How the results depend on the processing

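Of 53 values of named members, recomputed in 745 cases, 640 kept direction and side of the threshold, 87 lost and 17 gained a call, and 1 changed sign: Sf3b3 in the morula, 0.083 in wells that held Xist but no Y-linked count (Xist-only wells). The cause was not tested. Members called in the morula (1) numbered 0 with DESeq2 and in Xist-only wells, and 2 in a fit of the morula plates alone, beside 0.138%, 0.0965% and 8.03% of all genes (0.552%). In the blastocyst (0) there was 1 without the filter on low counts, with the highest well of each gene left out and in the blastocyst plates alone, beside 0.865%, 1.26% and 1.49% of all genes. On average (1) there were 2 without the filter, beside 1.81% of all genes. Between the stages, Xist-only wells gave 7 calls in control (21) and 17 in NKX1-2 wells (27), beside 22.8% and 36.8% of all genes. With each plate left out in turn, the counts ran from 0 to 2 (morula), 0 to 6 (blastocyst), 1 to 10 (average), 0 to 3 (difference), 11 to 21 (control stages) and 15 to 21 (NKX1-2 stages). With no replicate block the morpholino counts were 1, 0, 1 and 0, beside 0.313%, 0.395%, 1.7% and 0.0092% of all genes. With the replicate number as a block the stage fits called 20 and 29 members, beside 38.5% and 46.3% of all genes. Deviations from the stage mean correlated over genes at 0.0251 and -0.00201 between same-numbered plates of the stages. The same measure gave 0.257 (morula) and -0.000704 (blastocyst) for sums that share a plate. It therefore cannot decide whether the numbers pair the plates. Across the stages, DESeq2 called 14 and 19 members, beside 26.2% and 29.3% of all genes. Low counts limit Srsf4, Srsf12, Prpf40b, Lsm10 and Lsm14b.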
